A study of Homo sapiens with 6 samples.

Results

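The TET family genes TET1, TET2 and TET3 were described through the 5-hydroxymethylcytosine (5hmC) and 5-methylcytosine (5mC) regions listed over them in A2058, a human melanoma cell line made to overexpress wild-type TET2. Their members are the listed peak regions that overlap TET1 on chromosome 10 from 70320117 to 70454239, TET2 on chromosome 4 from 106067032 to 106200960 or TET3 on chromosome 2 from 74273405 to 74335302 (hg19), each with 5 kb added at both ends. These were 89 of the 593403 regions on chromosomes 1 to 22 and X in the 4 lists, 19 over TET1, 20 over TET2 and 50 over TET3. All groups carried the TET2 overexpression and were cultured for 7 days, in high or in normal glucose. The design sets the 2 marks side by side at the 2 glucose levels. The marks were read by antibody pull-down of DNA fragments and sequencing, hMeDIP-seq for 5hmC and MeDIP-seq for 5mC. Each mark had 1 library at each glucose level. Differences therefore have no replicate check and no p-value, and intervals cover counting error only. The input libraries, 2 in number, were not used as samples here. The labels do not say how many clones the line rests on.

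TET proteins are dioxygenases that use iron and 2-oxoglutarate to oxidise 5mC to 5hmC and further to forms that base excision repair can replace with plain cytosine. TET1 carries a CXXC zinc finger that binds CpG-rich DNA, TET2 lacks one because its ancestral CXXC part became the separate gene CXXC4, and TET3 has forms with and without it. 5hmC is commonly lower in melanoma than in naevi, and lower TET expression has been described in this tumour. The kinase AMPK, which high glucose restrains, is known to phosphorylate and stabilise TET2.

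The strongest 5mC of the family was a region at the start of TET2, whereas the start of TET1 had no 5mC region. The bases just before the gene start of each are shown for that contrast, 5′ to 3′, with every CpG, the dinucleotide that carries most methylation, in capitals. They come from RefSeq promoters on GRCh38.p14, matched by gene symbol, and are the 250 bases before the first start site listed there, TET2 at chr4:105145625-105145874 and TET1 at chr10:68560087-68560336, both on the plus strand.
TET2: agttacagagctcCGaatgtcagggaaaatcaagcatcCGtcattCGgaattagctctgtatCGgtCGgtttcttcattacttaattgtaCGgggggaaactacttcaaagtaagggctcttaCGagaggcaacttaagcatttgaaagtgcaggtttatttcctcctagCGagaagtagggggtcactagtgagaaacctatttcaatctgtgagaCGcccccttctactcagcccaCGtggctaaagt
TET1: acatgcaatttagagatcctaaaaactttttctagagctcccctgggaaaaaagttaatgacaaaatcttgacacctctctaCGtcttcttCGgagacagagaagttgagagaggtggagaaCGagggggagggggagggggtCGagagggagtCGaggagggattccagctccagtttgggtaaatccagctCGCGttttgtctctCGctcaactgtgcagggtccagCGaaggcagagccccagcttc
The motif CG, which reads the same on both strands, occurs 10 times in the TET2 and 9 times in the TET1 stretch. Over the 35116 RefSeq promoters, 93.9% of such stretches hold at least 1 CG and the median is 11. Both genes lay just under that median. RefSeq gives TET2 a span of 133929 bp on GRCh38.p14, the same length as the hg19 span used here, whereas the TET1 spans differ, 134151 against 134123 bp. That these stretches are the bases before the hg19 starts was not tested.

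At the TET2 start, the regions of all 4 lists lay on top of each other. In high glucose the 5mC region ran from 106066759 to 106067586 on chromosome 4, 273 bp before to 554 bp after the gene start, enriched 29.9-fold over the expected level at -log10 p 75.1. In normal glucose it ran from 106066807 to 106067484, enriched 27.9-fold at -log10 p 65.8. Fold and p are the authors' values for the peak and serve only to rank and describe within a list. The strongest region is the one with the highest -log10 p. These were the strongest 5mC regions of the whole family, ranked 4565 of 100220 and 4413 of 91870. They covered 250 and 225 of the 250 bases before the gene start. Their summits lay outside those bases, 189 bp after the gene start in high and 87 bp after it in normal glucose.

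From fold and p together, the number of fragments at a summit and the number expected there could be worked out. The commonest expected count of a list is called its background. It was 3.03 fragments for 5hmC and 0.737 for 5mC in high glucose, and 2.64 and 0.615 in normal glucose. The TET2 start held 51 5mC fragments in high glucose (exact Poisson 95% interval 38.0 to 67.1) where 0.737 were expected, and 44 in normal glucose (32.0 to 59.1) where 0.615 were expected. Relative to the background of its list, the 5mC summit stood at 69.2 times in high and 71.6 times in normal glucose. The counting intervals of both levels overlapped.

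5hmC at the same place was weaker. The high-glucose region ran from 106066863 to 106067493, enriched 6.95-fold at -log10 p 17.3, with 27 fragments at the summit (17.8 to 39.3), the strongest 5hmC region of TET2 in that list. In normal glucose it ran from 106066531 to 106067439, enriched 4.19-fold at -log10 p 7.27, with 15 fragments (8.40 to 24.7). The 5hmC summits were 1 bp apart, and the counting intervals overlapped. A further weak 5mC region lay upstream in both lists, from 106065761 to 106066084 in high glucose (fold 4.03, 6 fragments) and from 106065781 to 106066105 in normal glucose (fold 4.95, 7 fragments).

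RefSeq lists another TET2 start site 1001 bp downstream of the first, and the 250 bases before it hold 34 CpGs, more than 93.2% of all such stretches. The 5mC regions at the gene start ended 554 and 452 bp after it, and the next 5mC region began 13051 bp after it in high and 13118 bp in normal glucose. No 5mC region was thus listed 1001 bp after the start, beside the more CpG-dense stretch. Whether that distance is the same on hg19 was not tested either.

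Inside TET2 the marks parted. After the gene start, 5mC was listed at both glucose levels only from 106080083 to 106081208 (high glucose, fold 9.21, 15 fragments) and from 106080150 to 106081220 (normal glucose, fold 9.29, 14 fragments). A last 5mC region from 106106684 to 106107007 (fold 4.03, 6 fragments) was listed in high glucose alone. 5hmC regions instead were spread to the far end of the gene. Those shared by both glucose levels began 22139, 47241, 89931 and 117637 bp after the gene start in high glucose, and their summits held 14, 14, 14 and 17 fragments there. In normal glucose the same 4 places held 14, 11, 12 and 13 fragments. All of them are weak, with folds of 2.28 to 4.47.

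The TET2 5hmC regions of 1 glucose level were weak as well. In high glucose this was chromosome 4 from 106130876 to 106131225, enriched 2.90-fold at -log10 p 4.50, with 14 fragments. In normal glucose these were 106117067 to 106117392, enriched 4.45-fold with 16 fragments, and 106196182 to 106196458, enriched 4.32-fold at -log10 p 8.10, with 17 fragments. The latter had the highest -log10 p of the TET2 5hmC regions in normal glucose, above the gene start, and the former the highest fold.

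TET2 is the overexpressed gene, and the labels do not describe its vector. In the peak lists, reads from a vector's coding sequence and reads from the chromosomal exons cannot be told apart. No exon positions on hg19 were used here, so no TET2 region is assigned to an exon or intron, and whether one comes from the vector was not tested. The expected count can be read at each region. Of the TET2 5hmC regions, 1 of 6 at high and 2 of 7 at normal glucose had an expected count over 1.5 times the background of the list, where 39.6% and 34.9% of all regions had. The region beginning 89931 bp after the gene start in high glucose had 1.65 times, and its normal-glucose partner, beginning 89826 bp after it, 1.78 times. The third, beginning 22173 bp after the gene start in normal glucose, also had 1.78 times, while its high-glucose partner was at the background. The 7 TET2 5mC regions all had an expected count at the background, the gene start included. Over all 5mC regions the median was 1.23 times the background in high and 1.19 times in normal glucose, and 24.3% and 24.2% exceeded 1.5 times. The share of all 5mC regions at the background is not given here.

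**Figure D1:**
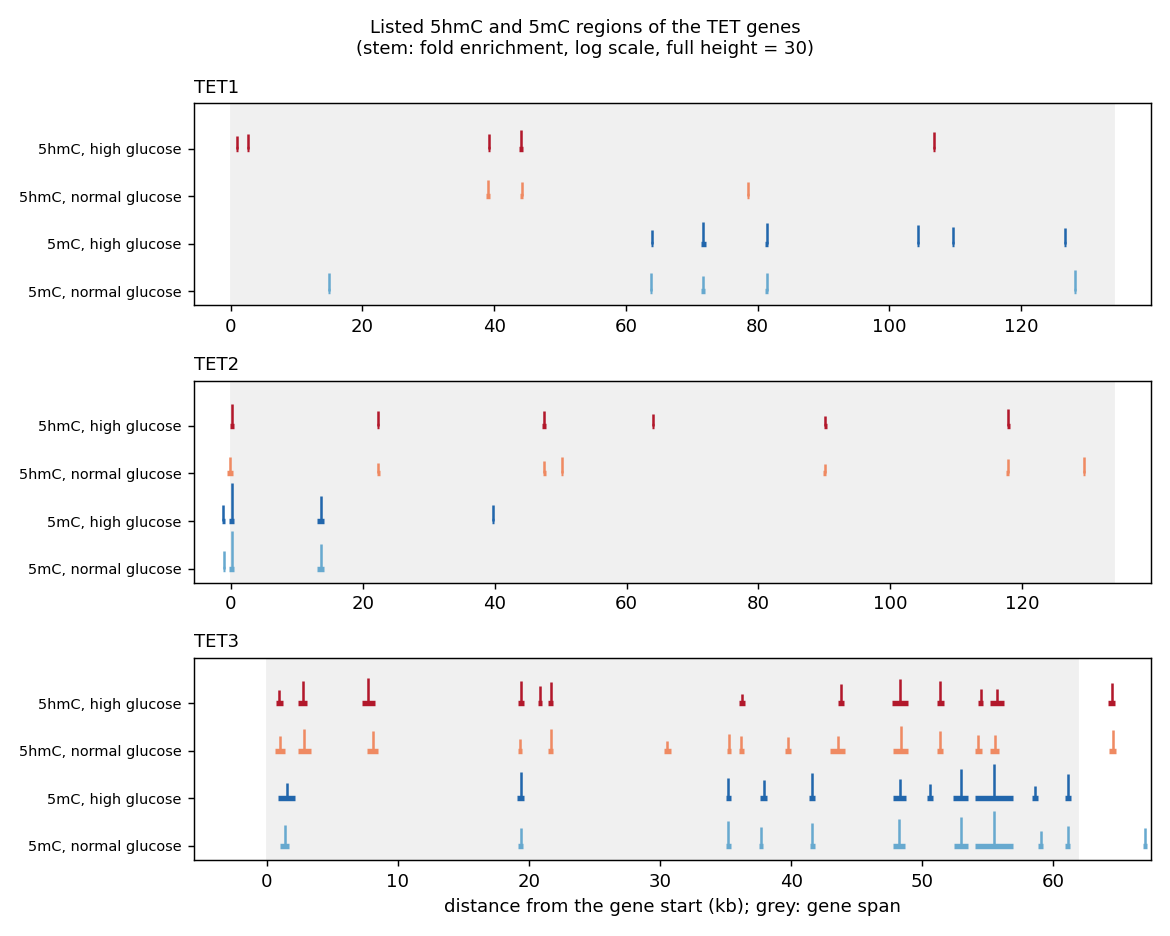
Listed regions of the TET genes by distance from the gene start in kb, 1 row per list; each bar is a region and each stem its fold enrichment on a log scale. All 4 lists have a region at the TET2 start with 5mC folds of 29.9 and 27.9, TET1 has none of 5mC near its start, and TET3 is densely filled in all lists.

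TET1 carried few and weak regions, and in no place did both marks meet. At its start there was no 5mC region within 13551 bp in the high-glucose and 14697 bp in the normal-glucose list. A weak 5hmC region in high glucose alone began 841 bp after the start, on chromosome 10 from 70320958 to 70321249, enriched 2.98-fold with 11 fragments (5.49 to 19.7). Normal glucose had no 5hmC region within 38743 bp of the start.

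The strongest TET1 5hmC region in high glucose lay from 70363926 to 70364529, enriched 5.22-fold at -log10 p 11.6, with 22 fragments (13.8 to 33.3). Its normal-glucose partner from 70364054 to 70364465 had a fold of 3.57 and 12 fragments (6.20 to 21.0). Close by, 70358860 to 70359445 was the strongest in normal glucose, enriched 4.12-fold at -log10 p 6.87, with 14 fragments, and 70359151 to 70359448 in high glucose had 14 fragments too. Of the TET1 5hmC regions found at 1 glucose level, the strongest were 70426776 to 70427067 in high glucose, enriched 4.22-fold with 16 fragments, and 70398432 to 70398795 in normal glucose, enriched 3.57-fold with 16 fragments.

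5mC over TET1 lay mainly further along the gene. Of 6 high-glucose regions, the first began 63811 bp after the gene start, and of 5 normal-glucose regions 1 lay before that point, 14697 bp after the start. The 3 regions shared by both lists began 63811, 71456 and 81171 bp after the gene start in high glucose, with 5, 11 and 10 fragments, and had 7, 6 and 7 fragments in normal glucose. The strongest in high glucose was 70391573 to 70392198, enriched 6.91-fold at -log10 p 10.6. In normal glucose it was 70448078 to 70448465, enriched 6.81-fold at -log10 p 10.2, with 10 fragments, which had no high-glucose partner. Among TET1 5mC regions without a normal-glucose partner the strongest, 70424221 to 70424650, had a fold of 5.23 and 9 fragments. The TET1 5mC summits had 5 to 11 fragments, where the median summit of the lists has 12 in high and 11 in normal glucose.

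TET3, the family member known for oxidising the paternal genome after fertilisation, had the most regions in all 4 lists although its window is the shortest, 71898 bp against 144123 for TET1 and 143929 for TET2. It held 13 5hmC regions in high and 15 in normal glucose, and 11 5mC regions in each list. The span used for it, 61898 bp, is shorter than the 151868 bp of RefSeq on GRCh38.p14, so the first base of the span may not be the gene's first start site, and no promoter is shown.

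The strongest TET3 5mC region was a block of 2918 bp on chromosome 2 from 74327417 to 74330334, 54012 to 56929 bp after the start of the span. It had the same first and last base in both lists. Its fold was 22.4 and its -log10 p 58.0 in high glucose, with 46 fragments (33.7 to 61.4), and 22.3 and 52.3 in normal glucose, with 39 fragments (27.7 to 53.3). This was 1 of 21 high-glucose 5mC regions of the family, where 0.00399% of the list have a normal-glucose region with the same ends, and for 5hmC 0 of 24, where 0.00157% have. It was noticed after the values were seen. The block also held 2 5hmC regions in each list, with 17 and 20 fragments in high and 18 and 18 in normal glucose.

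The TET3 5hmC region with the highest -log10 p in both lists lay shortly before that block and carried both marks. It ran from 74321079 to 74322322 in high glucose, enriched 8.64-fold at -log10 p 37.5, with 58 fragments (44.0 to 75.0), and from 74321201 to 74322320 in normal glucose, enriched 9.57-fold at -log10 p 31.5, with 43 fragments (31.1 to 57.9). 5mC there had 11 fragments in high glucose (5.49 to 19.7) and 20 in normal glucose (12.2 to 30.9). The counting intervals overlapped for each mark.

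At the start of the TET3 span, 5hmC was listed from 74274096 to 74274620 in high glucose, enriched 3.39-fold, and from 74274078 to 74274788 in normal glucose, enriched 3.92-fold, each with 25 fragments. 5mC was listed there from 74274281 to 74275593 in high glucose, enriched 4.16-fold with 10 fragments, and from 74274454 to 74275111 in normal glucose, enriched 6.48-fold with 11 fragments. Both marks were also listed at all levels near 74292549, where 5hmC had 37 fragments in high and 22 in normal glucose and 5mC had 21 and 11. Strong 5hmC without an overlapping 5mC region was listed from 74275787 to 74276522 in high glucose (49 fragments, 33 in the normal-glucose partner). It began shortly after the high-glucose 5mC region that ended at 74275593. Another such 5hmC region ran from 74280642 to 74281655 (42 fragments, 35 in the partner). The latter had the highest fold of the TET3 5hmC regions in high glucose, 9.60. Strong 5mC without an overlapping 5hmC region was listed from 74325759 to 74326872 in high glucose (27 fragments, 30 in the partner).

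Of the TET3 regions in high glucose, 1 of 13 for 5hmC and 2 of 11 for 5mC were found at 1 glucose level. In normal glucose these were 3 of 15 and 2 of 11. Over the whole 5hmC and 5mC lists the shares were 24.1% and 28.3% in high and 31.2% and 21.5% in normal glucose. The strongest of these TET3 regions was a high-glucose 5hmC region from 74294122 to 74294428, enriched 4.84-fold at -log10 p 11.8, with 25 fragments. It lay 467 bp from the nearest normal-glucose region. In normal glucose it was a 5hmC region from 74308517 to 74308807, enriched 4.69-fold at -log10 p 9.78, with 20 fragments, at a place where both glucose levels had 5mC. The strongest 5mC regions of 1 level were 74323733 to 74324217 in high glucose, enriched 3.72-fold with 6 fragments, and 74340217 to 74340541 in normal glucose, enriched 4.86-fold with 7 fragments. At 74332198 a high-glucose 5mC region ended 9 bp before a normal-glucose one began, so each counts as found at 1 level.

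Per length of the window used, TET3 stood above the other genes in every list. The TET3 span behind that window is 61898 bp, where RefSeq gives 151868 bp on GRCh38.p14. Whether the rest of that gene is as dense was not tested. It had 18.1 5hmC regions per 100 kb in high and 20.9 in normal glucose, against 4.17 and 4.86 for TET2 and 3.47 and 2.08 for TET1. Chromosomes 1 to 22 and X together had 6.49 and 7.13 per 100 kb. For 5mC, TET3 had 15.3 per 100 kb in each list, TET1 4.16 and 3.47, and TET2 2.78 and 2.08, where all chromosomes had 3.40 and 3.12. TET3 was therefore 2.78 and 2.93 times as dense as the whole list in 5hmC and 4.50 and 4.91 times in 5mC. TET1 and TET2 lay below the level of all chromosomes in 5hmC, and TET1 close to it in 5mC. In the order of the levels, TET1 and TET2 swap places between the marks, and within a list they are only 1 to 4 regions apart.

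**Figure D2:**
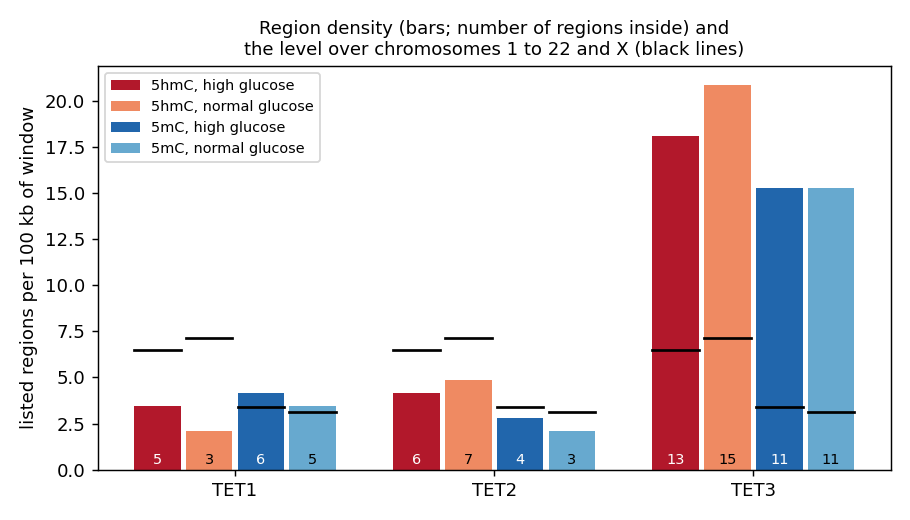
Listed regions per 100 kb of window for each gene and list (bars, with the number of regions inside) and the level over chromosomes 1 to 22 and X (black lines). TET3 lies at 15.3 to 20.9 per 100 kb, above the lines, while TET1 and TET2 lie between 2.08 and 4.86.

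The share of the window inside regions gave the same order at the top. 5hmC regions covered 11.3% of the TET3 window in high and 12.7% in normal glucose, 1.86% and 2.22% of TET2, and 1.23% and 0.945% of TET1, where 3.90% and 4.23% of all chromosomes were covered. 5mC regions covered 13.4% and 11.1% of TET3, 1.81% and 1.44% of TET2 and 1.66% and 1.37% of TET1, against 2.42% and 2.25%. Regions reaching -log10 p 10 numbered 9 of 13 and 6 of 15 in TET3 5hmC, where 49.9% and 40.6% of the lists reached that value, and 6 of 11 and 5 of 11 in TET3 5mC, where 51.8% and 51.5% did.

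The expected count moved with the gene. In TET3 every region had an expected count above the background, from 1.12 to 2.20 times in the high-glucose 5hmC list and 1.13 to 2.49 times in the normal-glucose one, and up to 2.72 times and from 1.05 to 2.27 times in the 5mC lists. In TET1 the highest was 1.42 times. Of the TET3 5hmC regions, 7 of 13 and 9 of 15 exceeded 1.5 times the background, where 39.6% and 34.9% of all 5hmC regions did. Of the TET3 5mC regions, 4 of 11 in each list exceeded it, where 24.3% and 24.2% of all 5mC regions did. The part of the expected count in the number of TET3 regions was not tested.

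**Figure D3:**
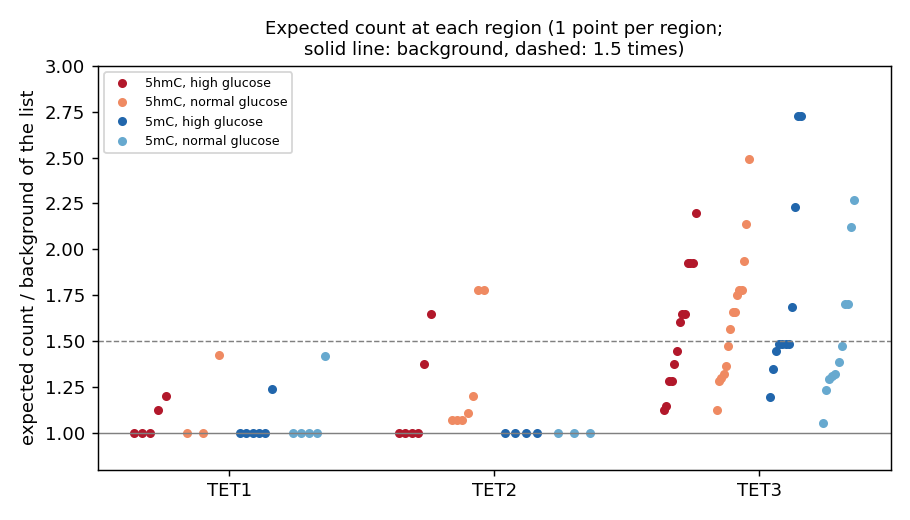
Expected count at each listed region divided by the background of its list, 1 point per region, for each gene and list. All TET3 points lie above 1, all TET2 5mC points at 1, and 3 TET2 5hmC points above 1.5.

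5hmC regions of the family numbered 24 in high and 25 in normal glucose, and 5mC regions 21 and 19. TET1 had 5 and 3 5hmC regions, TET2 6 and 7, and TET3 13 and 15, so the direction was not the same in the 3 genes. Among regions reaching -log10 p 10, 5hmC numbered 11 in high and 6 in normal glucose, and in TET3 9 and 6, so the direction in TET3 turned with that threshold. The whole 5hmC lists turned the same way. They held 191314 regions in high and 209999 in normal glucose as deposited, and 95542 and 85278 at that threshold. For 5mC all listed regions numbered 6 and 5 in TET1, 4 and 3 in TET2, and 11 and 11 in TET3. As deposited, no 5mC list of normal glucose thus held more regions of a gene than that of high glucose, whose background was also higher. The whole 5mC lists held 100220 regions in high and 91870 in normal glucose. With equal numbers of top peaks, 5mC regions numbered 5 and 5 in TET1, 2 and 3 in TET2, and 9 and 11 in TET3. Normal glucose then held more in TET2 and TET3.

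The regions without a partner at the other glucose level were about as frequent as elsewhere. They were 5 of 24 in high-glucose 5hmC (20.8%, Wilson 95% interval 9.24 to 40.5), where 24.1% of the whole list had none, and 6 of 25 in normal-glucose 5hmC (24.0%, 11.5 to 43.4), where 31.2% had none. For 5mC they were 6 of 21 (28.6%, 13.8 to 49.96) beside 28.3%, and 4 of 19 (21.1%, 8.51 to 43.3) beside 21.5%. These shares are near the background, and a region found at 1 level is not thereby shown to differ. In the high-glucose 5hmC list, the family's regions without a partner had a median summit of 16 fragments and those with one 25. In the high-glucose 5mC list the medians were 6.5 and 15. The normal-glucose medians lay closer together, 16.5 and 20 for 5hmC and 7 and 11 for 5mC.

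In no shared pair of regions did the counting intervals of the glucose levels separate. For 5hmC there were 19 pairs of overlapping regions, and in 10 the summit stood higher over the background in high glucose. For 5mC there were 15 pairs, 5 of them higher in high glucose. The counting intervals of the summits, each divided by the background of its list, overlapped in 19 of 19 and 15 of 15 pairs. Over all pairs of the lists they failed to overlap in 0.76% for 5hmC and 1.56% for 5mC, so pairs without overlap were rare everywhere. By gene, 1 of 2 TET1, 4 of 5 TET2 and 5 of 12 TET3 5hmC pairs were higher in high glucose, and 2 of 3 TET1, 0 of 3 TET2 and 3 of 9 TET3 5mC pairs. Of the 4 TET2 5hmC pairs, 1 was nearly even, at 4.62 times the background in high and 4.55 in normal glucose. The share of all pairs of the lists that were higher in high glucose is not given here. These counts therefore cannot be told apart from a shift of the whole lists.

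**Figure D4:**
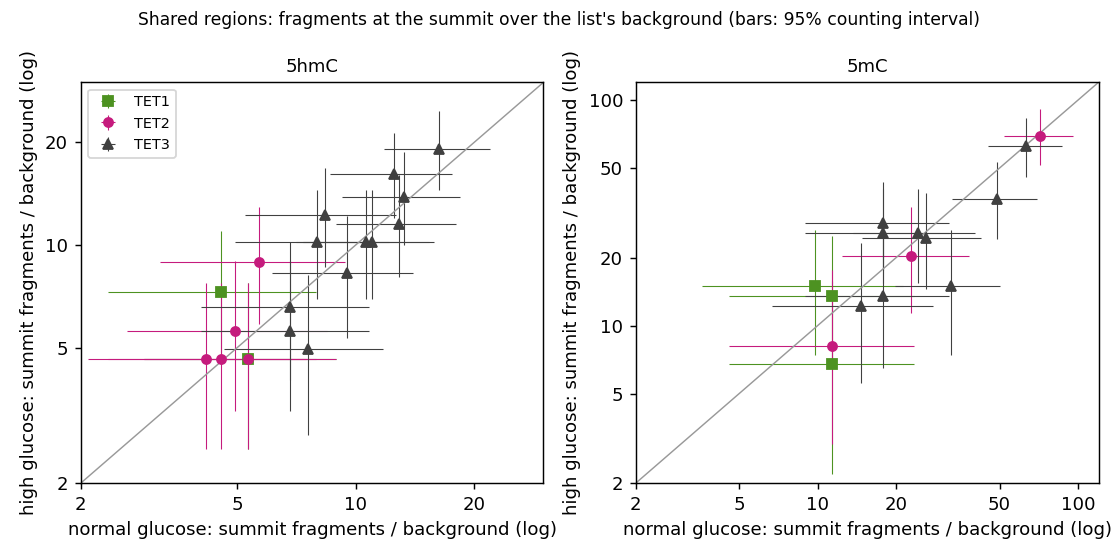
Fragments at the summit divided by the background of the list, normal glucose on the x axis and high glucose on the y axis, both log scales, for 19 shared 5hmC pairs (left) and 15 shared 5mC pairs (right), with 95% Poisson intervals. The points follow the line of equal values, with the TET2 start at 69.2 and 71.6 times the background at the top right of the 5mC panel.

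When the regions of all lists that overlap were joined, the family had 48 places, 14 in TET1, 11 in TET2 and 23 in TET3. Of these, 5 were listed in all 4 lists, 4 in TET3 and the start of TET2, and 20 in 1 list. 5mC and 5hmC were both listed at 6 places, 5 of them in TET3 and none in TET1. Of the 5mC regions, 5 of 21 overlapped 5hmC in high glucose (23.8%, 10.6 to 45.1), where 32.2% of the whole list did, and 6 of 19 in normal glucose (31.6%, 15.4 to 54.0), where 39.7% did. In TET3 alone these were 4 of 11 (36.4%) and 5 of 11 (45.5%), near the shares of the whole lists, in TET2 1 of 4 and 1 of 3, and in TET1 0 of 6 and 0 of 5. The added place in normal glucose was the 5hmC region from 74308517 named above, over 5mC with 18 and 16 fragments.

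The edge of a window cut through 1 member. The 5mC region of normal glucose from 74340217 to 74340541 crossed the end of the TET3 window by 239 bp. Some members lay in the flanks alone. Without flanks, TET2 kept 3 of 4 high-glucose and 2 of 3 normal-glucose 5mC regions. TET3 kept 12 of 13 high-glucose and 14 of 15 normal-glucose 5hmC regions, and 10 of 11 normal-glucose 5mC regions. Just outside, 5hmC regions lay 678 bp before the TET3 window in high and 860 bp in normal glucose, with folds of 5.04 and 5.40, and the next lay 4138 and 4030 bp before the TET2 window, with folds of 3.26 and 8.25. The first 5hmC members inside the TET2 window were the regions at the gene start.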

How the data were processed

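5hmC (hMeDIP-seq) and 5mC (MeDIP-seq) were compared in A2058 cells, with 1 library for each mark and glucose level, grouped by title. The authors deposited 1 peak list per library, not pooled, per the labels. The deposited columns are a display score, the fold over background as a ratio, p-value and q-value as -log10, and the summit. The score was not used. The submitters' processing notes name hg19 as build and, with no roles, bedtools 2.17.0, SAMtools 0.1.18, Bowtie 1.0.0 and CASAVA 1.8.2. The caller, its control and the handling of duplicates are not given in these sources. Positions are hg19 and 1-based.

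Regions on chromosomes 1 to 22 and X were kept, and overlap meant at least 1 bp. Each region was assigned the whole fragment number t and expected level L for which the fold equals (t + 1)/(L + 1) and p is the Poisson tail above t. The misfit was under 1% of the step to the next t in 100% of regions. The commonest L was read as the background of the list: 3.03 and 2.64 fragments for high- and normal-glucose 5hmC, 0.737 and 0.615 for 5mC. These counts are inferred from the values. On simulated peaks the search recovered t for 99.9% to 100% in each list. A summit is the highest point of its region, so its interval covers counting only. Density per 100 kb over all chromosomes used the span between the outermost regions, gaps included.

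Named were, per gene and list, the strongest region, regions within 1 kb of the gene start and the strongest region found at 1 glucose level. Other regions given by position were chosen after their values were seen. The genes, this rule and the alternatives were chosen with earlier results of these data known. Alternatives were thresholds of 10 on -log10 p and 2 on -log10 q, windows without flanks, equal numbers of top peaks, overlap of 50% of both regions and matched background, in which t and L were scaled to the lower background of each mark and regions whose p then fell under the lowest of the lists were left out. Exons and other genes of the pathway were not analysed here, because no hg19 annotation was used. Python 3.11.15, NumPy 2.4.6, pandas 2.3.3, SciPy 1.17.1 and Matplotlib 3.10.9 were used.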

Additional observations from a re-analysis of the deposited data

How the results depend on the processing

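No paired analysis was possible because each group has 1 library, and for the same reason no replicate could be left out. The TET3 window had the highest density of the 3 genes in all 4 lists under the 4 alternatives that changed which of its regions were counted or the window. Over the 3 genes, a threshold of 10 on -log10 p left 11 and 6 5hmC regions in high and normal glucose and 9 and 8 5mC regions, covering 1.92%, 1.19%, 2.35% and 2.18% of the windows. At that threshold 5 of 11 high-glucose and 0 of 6 normal-glucose 5hmC regions were found at 1 level, and 3 of 9 and 2 of 8 5mC regions. The shares over the whole lists at that threshold are not given here. In high and normal glucose, 2 and 1 5mC regions overlapped 5hmC. 5hmC regions of TET1 and TET2 fell to 1 each in high and 0 in normal glucose. With equal numbers of top peaks, 8 of 24 high-glucose 5hmC and 3 of 16 high-glucose 5mC regions were found at 1 level. In normal glucose these were 5 of 21 and 6 of 19. With overlap of 50% of both regions, 3 high-glucose 5mC regions overlapped 5hmC. The shares over the whole lists with equal numbers of top peaks or with 50% overlap are not given here either. A threshold of 2 on -log10 q and windows without flanks left every total over the 3 genes within 1.5 times its value. Matched background removed 0 of the 89 regions, so it says nothing about stability. The 5mC lists rest on a background under 1 fragment, so a weak 5mC region of 5 to 7 fragments missing from the other list was not detectable as a difference at this depth.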

Other observations

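The 5mC regions of TET2 as a group lay between long stretches without listed 5mC. Before the first of them, 239.8 kb held no 5mC region in either list, a length reached by 1.87% of the gaps between neighbouring high-glucose and 2.12% of those between normal-glucose 5mC regions. After the last TET2 region, 179.2 kb in high and 254.1 kb in normal glucose held none, lengths reached by 2.68% and 1.98% of gaps. The median gap was 5852 and 6107 bp. These shares count gaps, not length. Long gaps take up more of the genome than their number tells, so a gene borders on one more often than these shares. The share by length is not given here. Gaps in the assembly or unmappable stretches were not looked for. This stretch was chosen after its values were seen.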
